A study of Mus musculus with 24 samples.

Results

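The metallothioneins and the zinc transporters of mouse liver are described here through 6 genes: the metallothioneins Mt1 and Mt2, the exporters Slc30a1 and Slc30a10, and the importers Slc39a14 and Slc39a4. They were taken from a count table by gene symbol, 6 of 24015 symbols, and each symbol had 1 row. All 6 passed the filter on low counts in every comparison. Livers came from female B6C3F1 mice, bought at 5 to 6 weeks of age. The 4 furan animals (numbered 41, 42, 43 and 44) were given furan, a liver toxicant and carcinogen in rodents, in corn oil by gavage at 8 mg per kg body weight daily for 21 days. The 4 control animals (2, 3, 4 and 6) received the corn oil alone, and livers of both groups were taken 4 h after the last dose. Each liver was split into a frozen piece, a piece held in formalin for 18 h and a piece held in formalin for 3 weeks, and both formalin pieces were stored in paraffin (FFPE), which gave 24 ribosomal RNA-depleted libraries in 6 groups of 4. Frozen and FFPE RNA were extracted with different kits, the 18 h pieces from 1 section and the 3 week pieces from 2, so kit, section number and fixation cannot be told apart.

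Metallothioneins are small cysteine-rich proteins that hold zinc and copper in the cell, and the liver makes them in quantity after zinc, cadmium, glucocorticoid or interleukin-6 exposure. The transcription factor MTF-1 senses zinc and binds metal response elements in the promoters of Mt1, Mt2 and Slc30a1. Transporters of the SLC30 (ZnT) family lower cytosolic zinc and those of the SLC39 (ZIP) family raise it.

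The frozen libraries held 37978435 to 49326373 counts, the 18 h FFPE libraries 22889146 to 28054631 and the 3 week FFPE libraries 5560002 to 11019297. The RNA integrity number was above 8.9 in frozen tissue and 1.3 to 2.4 in FFPE tissue. The frozen library of control animal 3 stood apart: furan changed 392 genes in frozen tissue with it and 1148 without it. All 14 hepatocyte markers were detected, with a summed level of 223256 to 251505 CPM in frozen tissue (counts scaled to a common library size, with TMM factors). Furan changed none of the 14 there, beside 2.78% of all genes changed. Of 10 sinusoidal endothelial markers furan lowered 1 in frozen tissue, beside 1.2% of all genes lowered, with a median log2 fold change of -0.29. Their summed level was 785 to 802 CPM in frozen controls and 611 to 651 CPM with furan. The 11 Kupffer cell and macrophage markers had a median of -0.31 in frozen tissue, and none was called, beside 2.78% of all genes. In bulk tissue, fewer cells of a type and less RNA per cell cannot be told apart.

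Promoter stretches that hold the core letters of the metal response element are shown because Mt1 and Mt2 lie next to each other on chromosome 8 and varied together between livers, as given below. The 250 bases before each RefSeq start (build GRCm38.p6) were searched on both strands for the metal response core TGCGCNC or TGCACNC and for the antioxidant response core TGACNNNGC. Promoters of 4 of the 6 genes were matched by symbol, all on the plus strand. The capitals mark the match, and a match on the minus strand appears as its reverse complement.
Mt1, chr8:94179056-94179082: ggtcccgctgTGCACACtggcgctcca
Mt2, far site, chr8:94172385-94172411: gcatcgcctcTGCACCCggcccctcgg
Mt2, middle site, chr8:94172480-94172506: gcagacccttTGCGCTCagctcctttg
Mt2, near site on the minus strand, chr8:94172558-94172584: gggggagggcGTGTGCAggctctgtcc
Mt2, antioxidant core, chr8:94172529-94172557: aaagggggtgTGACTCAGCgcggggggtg
Slc30a1, minus strand, chr1:191906728-191906754: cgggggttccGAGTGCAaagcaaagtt
Slc30a1, antioxidant core on the minus strand, chr1:191906689-191906717: gggcaccgggGCCTTGTCAcgctcgggtc
Slc30a10, chr1:185454765-185454791: gacatcccaaTGCGCCCctcctcccag

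The Mt1 match began 23 bases before the start, and the 3 metal response matches of Mt2 began 223, 128 and 50 bases before it. Slc30a10 held, beside the match printed, a palindromic stretch that matched on both strands 233 to 226 bases before the start. Of 32851 promoters searched in the same way, 21.4% held at least 1 metal response core and 5.17% at least 2, and 10.2% held the antioxidant core. These matches describe letters and show no binding.

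Levels were compared between genes as CPM per kilobase of RefSeq-linked transcript (CPM per kb). Mt1 was the highest of the 6 in frozen control liver, at 172 ± 32.5 CPM per kb (SD, n = 4). Slc39a14 followed at 73.2 ± 9.61 CPM per kb and Mt2 at 51.1 ± 16.7, and the gap between these was close to their spread. Slc39a4 at 16.8 ± 2.08 CPM per kb and Slc30a1 at 16.3 ± 2.25 did not differ beyond their spread. Slc30a10 was the lowest, at 9.55 ± 3.46 CPM per kb. The frozen furan livers gave the same order for Mt1 (144 ± 61.9 CPM per kb) and Slc39a14 (77.6 ± 9.69) as the highest pair. There Slc30a10 (15.3 ± 1.91), Slc39a4 (18.6 ± 1.93) and Slc30a1 (19.0 ± 0.852) lay close together.

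No rise of Mt1 or Mt2 with furan was called in any of the 3 preservations, and their differences were negative in all 3, though some were near 0 with 1 liver left out. Of the 6 genes, those called were Mt2, which fell in 3 week FFPE tissue, and Slc39a4, which rose in 18 h FFPE tissue. With edgeR's quasi-likelihood test and Benjamini-Hochberg adjustment at a threshold of 0.05, furan changed 2.78% of the 14122 genes tested in frozen tissue and none of the 6. In 18 h FFPE tissue it changed 15.5% of 14204 genes and 1 of the 6. In 3 week FFPE tissue it changed 2.58% of 12983 genes and 1 of the 6. At an unadjusted edgeR p under 0.05, 1 of the 6 passed in each preservation, beside 2593, 4111 and 1612 of all genes tested. DESeq2 called 0, 1 and 1 of the 6, beside 1065, 2547 and 497 of all genes. The median log2 fold change of the 6 was 0.12 in frozen, 0.10 in 18 h and 0.03 in 3 week tissue, against -0.01, -0.0025 and 0.01 over all genes tested.

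**Figure D1:**
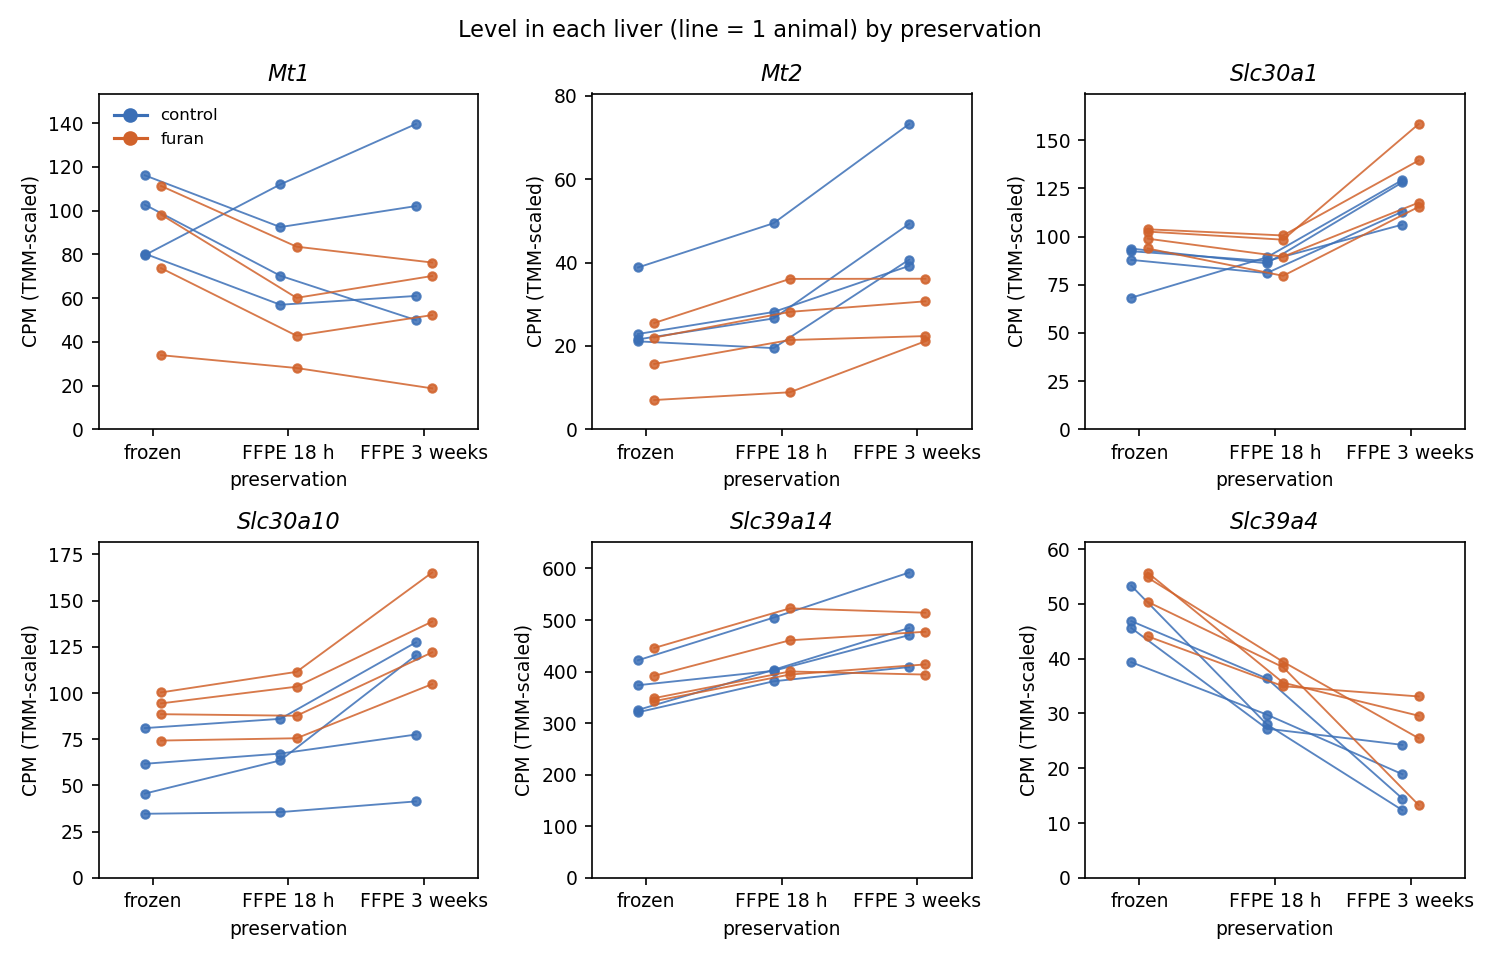
Level of each of the 6 genes in CPM (vertical axes) in the 24 libraries, by preservation (horizontal axes), with 1 point per library, a line joining the 3 pieces of a liver, and control and furan livers in separate colours. Control and furan points overlap for Mt1 in all 3 preservations, while Slc39a4 falls and Slc30a1 is highest in 3 week tissue.

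Mt1 in frozen control livers (animals 2, 3, 4 and 6) was 80.3, 79.6, 103 and 116 CPM. In the frozen furan livers (animals 41, 42, 43 and 44) it was 111, 98.2, 73.7 and 33.9 CPM. The groups overlapped, with animal 44 alone far below the rest, and the log2 fold change was -0.25 ± 0.29 (SE, edgeR adjusted p = 0.685). In 18 h FFPE tissue Mt1 was 57.0, 112, 70.2 and 92.5 CPM in controls, and 83.5, 60.1, 42.8 and 28.0 CPM with furan. In 3 week tissue it was 61.0, 139.6, 49.9 and 102 CPM in controls, and 76.3, 70.1, 52.2 and 18.7 CPM with furan. Animal 44 again had the lowest Mt1 in both, and animal 3 the highest. The differences were -0.62 ± 0.39 after 18 h and -0.69 ± 0.53 after 3 weeks (log2, SE, edgeR adjusted p = 0.360 and 0.745). Without animal 44 the frozen log2 difference of Mt1 was -0.00032 (edgeR adjusted p = 1.00), so its size there rested on that liver. The 3 week difference was -0.41 without animal 44 and -0.37 without control animal 3.

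Mt2, the second liver metallothionein, was 21.1, 38.8, 21.6 and 22.9 CPM in frozen controls, and 22.01, 25.5, 15.7 and 7.03 CPM in frozen furan livers. Animal 3 was the highest and animal 44 the lowest, and the groups overlapped (log2 fold change -0.57 ± 0.34, SE, edgeR adjusted p = 0.398). The frozen log2 difference was -0.31 without control animal 3 (edgeR adjusted p = 0.752) and -0.30 without furan animal 44 (adjusted p = 0.645). In 18 h FFPE tissue Mt2 was 19.5, 49.5, 26.6 and 28.2 CPM in controls, and 28.2, 36.1, 21.4 and 8.89 CPM with furan, again with overlap (-0.38 ± 0.48, SE, edgeR adjusted p = 0.678). That difference was -0.067 without control animal 3 and -0.12 without furan animal 44 (edgeR adjusted p = 0.957 and 0.886). In 3 week tissue the controls had 40.7, 73.2, 49.3 and 39.2 CPM and the furan livers 30.7, 36.1, 22.4 and 21.1 CPM. All 4 controls lay above all 4 furan livers there, and how many of all genes separate in this way was not counted.

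Mt2 fell by 0.87 ± 0.23 on the log2 scale in 3 week tissue (SE, edgeR adjusted p = 0.0343), to 0.549 of the control level. The call was lost when any of 5 livers was left out: control animal 3 (log2 change -0.63, adjusted p = 0.265), control 4 (-0.88, adjusted p = 0.0611), furan 41 (-0.92, adjusted p = 0.0532), furan 43 (-0.78, adjusted p = 0.124) or furan 44 (-0.76, adjusted p = 0.134). It was also lost when 1 model was fitted to all 24 libraries (-0.88, adjusted p = 0.171). Furan also lowered 2 of 14 hepatocyte markers in 3 week tissue, beside 1.51% of all genes lowered, and their part was not tested. The furan effect on Mt2 in 3 week tissue was not shown to differ from that in frozen tissue, as the interaction test below gives.

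Slc30a1, the zinc exporter of the plasma membrane, was 93.7, 68.3, 92.4 and 87.9 CPM in frozen controls. In the frozen furan livers it was 103, 104, 98.9 and 93.8 CPM. On the TMM scale all 4 furan values lay above all 4 control values, though furan animal 44 only just above control animal 2. By library totals alone the groups overlapped, with furan animal 44 at 79.9 CPM and control animal 4 at 80.2 CPM. How many of all genes separate 4 against 4 was not counted. The log2 fold change was 0.22 ± 0.12 (SE, edgeR adjusted p = 0.350). Without control animal 3, the lowest library, it was 0.13 (edgeR adjusted p = 0.423). After fixation the groups overlapped: 81.0 to 89.2 CPM in controls and 79.6 to 101 CPM with furan at 18 h, and 106 to 129 against 115 to 158 CPM at 3 weeks. The log2 differences there were 0.11 ± 0.07 and 0.17 ± 0.13 (SE, edgeR adjusted p = 0.357 and 0.700).

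Slc30a10, a ZnT-family exporter of the liver known to carry manganese, had the largest positive furan difference of the 6 in frozen and 18 h tissue. Its frozen levels were 81.0, 45.6, 61.7 and 34.7 CPM in controls. With furan they were 100.3, 94.4, 74.3 and 88.6 CPM. Control animal 2 lay inside the furan range and the other 3 controls below it. The log2 fold change was 0.68 ± 0.22 (SE), with an unadjusted p of 0.0104 and an edgeR adjusted p of 0.135, so it did not pass. Without control animal 2 it passed, at 0.91 (edgeR adjusted p = 0.0369), but it did not pass with any other liver left out. Without control animal 6, the lowest control, it was 0.51 (adjusted p = 0.202).

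In 18 h FFPE tissue Slc30a10 was 86.0, 63.5, 67.2 and 35.6 CPM in controls and 111, 103, 75.5 and 87.7 CPM with furan. In 3 week tissue it was 127, 120.4, 77.5 and 41.4 CPM in controls and 165, 139, 105 and 122 CPM with furan. Control animal 6 was the lowest and furan animal 41 the highest of the 8 livers in each preservation. The log2 differences were 0.59 ± 0.28 and 0.55 ± 0.36 (SE, edgeR adjusted p = 0.223 and 0.665). Without control animal 6 they were 0.39 and 0.31 (edgeR adjusted p = 0.172 and 0.520). The pieces come from the same animals, so the 3 preservations are no independent repeats.

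Slc39a14, an importer of zinc, iron and manganese, had a higher CPM per kb than Slc39a4, the other importer among the 6 genes. In frozen tissue it was 321, 374, 326 and 422 CPM in controls and 392, 446, 343 and 349 CPM with furan. The groups overlapped throughout, with log2 differences of 0.09 ± 0.13 in frozen, 0.08 ± 0.11 in 18 h and -0.10 ± 0.11 in 3 week tissue (SE, edgeR adjusted p = 0.762, 0.671 and 0.833). Control animal 6 and furan animal 42 were the highest pair in all 3 preservations.

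Slc39a4, the zinc importer best known from intestine, was 46.8, 53.3, 45.6 and 39.4 CPM in frozen controls and 44.1, 54.8, 55.7 and 50.4 CPM in frozen furan livers. These overlapped (log2 difference 0.15 ± 0.13, SE, edgeR adjusted p = 0.569). In 18 h FFPE tissue the controls had 36.4, 28.0, 27.2 and 29.8 CPM and the furan livers 35.0, 39.4, 35.6 and 38.4 CPM. Control animal 2 lay within the furan range and the other 3 controls below it. Slc39a4 rose there by 0.30 ± 0.10 on the log2 scale, or 1.23-fold (SE, edgeR adjusted p = 0.0404).

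That call of Slc39a4 was lost without control animal 3 (log2 change 0.25, adjusted p = 0.150), control 4 (0.24, adjusted p = 0.143), control 6 (0.28, adjusted p = 0.0828), furan 42 (0.26, adjusted p = 0.111), furan 43 (0.31, adjusted p = 0.0694) or furan 44 (0.27, adjusted p = 0.111). It was also lost in 1 model of all 24 libraries (0.29, adjusted p = 0.781), and the size of the difference changed little in these fits. Among liver cell markers at 18 h, furan raised 1 and lowered 4 of 14 hepatocyte genes and lowered 5 of 10 sinusoidal endothelial genes, beside 7.82% of all genes raised and 7.72% lowered. The part of these markers in the call was not tested. In 3 week tissue Slc39a4 was 14.5, 12.3, 24.3 and 18.9 CPM in controls and 33.1, 25.5, 29.6 and 13.3 CPM with furan. The groups overlapped through animal 44, and the log2 difference was 0.55 ± 0.30 (SE, edgeR adjusted p = 0.481). Of 9 intestinal epithelium markers, the defining factor Cdx1 had no count in any library and Cdx2 had 1 count in all. The sum of the 9, mostly Fabp2 and Lgr5, was 62.3 to 81.2 CPM in 18 h controls and 42.1 to 51.1 CPM in 18 h furan livers. As the sum rests on those 2 genes it does not measure intestine, and its part in the Slc39a4 call was not tested.

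**Figure D2:**
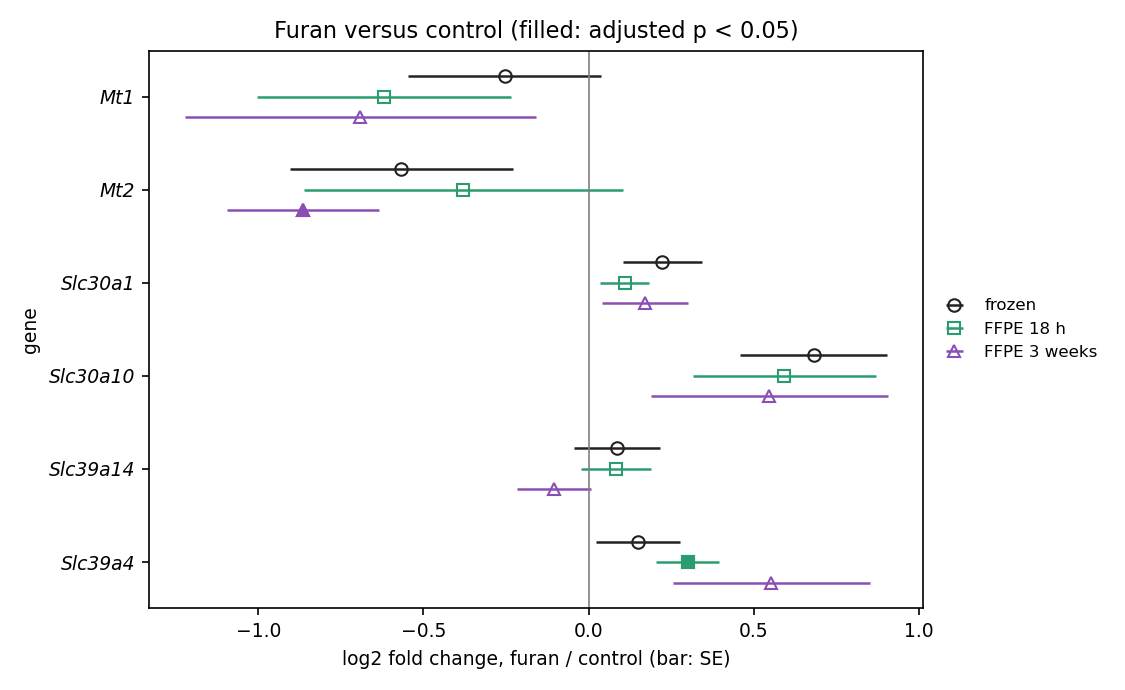
Log2 fold change of furan against control (horizontal axis) for each of the 6 genes (vertical axis) in the 3 preservations, with bars of 1 standard error and filled points where the edgeR adjusted p is under 0.05. Mt1 and Mt2 lie below 0 and Slc30a10 above 0 in all 3, with only Mt2 at 3 weeks and Slc39a4 at 18 h filled.

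The furan effect was compared between preservations by an interaction test for each pair, with no term for the animal although the pieces share livers. None of the 6 genes was called in any pair, and edgeR called 0% of 14843, 0% of 14253 and 0% of 14414 genes in the 3 pairs (18 h against frozen, 3 weeks against frozen, 3 weeks against 18 h). At an unadjusted p under 0.05 none of the 6 passed in any pair, against 239, 585 and 766 of all genes, and DESeq2 called 0, 9 and 25 genes and none of the 6. With the animal as a replicate block, edgeR also called 0 genes in each pair. The most negative interaction among the 6, without that block, was -0.35, -0.44 and -0.49 on the log2 scale in the 3 pairs.

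The wider zinc families were described from lists of 10 ZnT and 14 ZIP genes. In frozen tissue furan changed none of the 8 ZnT genes tested, with a median log2 fold change of 0.20, and raised 1 of 13 ZIP genes, with a median of 0.10 (all genes: median -0.01, 1.57% raised). That gene was Slc39a11, a ZIP of the Golgi and other inner membranes, at 21.4 to 21.9 CPM in controls and 28.4 to 32.4 CPM with furan (log2 fold change 0.48 ± 0.11, SE, edgeR adjusted p = 0.0388). In 18 h FFPE tissue 2 of 9 ZnT and 5 of 13 ZIP genes rose and none fell, with medians of 0.21 and 0.15 (all genes: median -0.0025, 7.82% raised and 7.72% lowered). In 3 week tissue none of 9 ZnT or 13 ZIP genes passed, with medians of 0.22 and 0.25 (all genes: median 0.01, 2.58% called).

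The ZnT genes that rose at 18 h were Slc30a4 (log2 fold change 0.28 ± 0.08, SE, edgeR adjusted p = 0.0214) and Slc30a5 (0.23 ± 0.07, adjusted p = 0.0258), the latter a loader of zinc into the secretory pathway. Beside Slc39a4, the ZIP genes were Slc39a6, Slc39a9, Slc39a10 and Slc39a11. Slc39a10, a plasma membrane importer, was 4.71 to 6.84 CPM in 18 h controls and 8.85 to 11.5 CPM with furan (0.80 ± 0.16, adjusted p = 0.00209). Slc39a6, its close relative, showed the same size of difference at a lower level (0.80 ± 0.20, adjusted p = 0.0117), and Slc39a9 a smaller one (0.23 ± 0.06, adjusted p = 0.0226). Slc39a11 rose by 0.45 ± 0.10 (adjusted p = 0.00528).

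**Figure D3:**
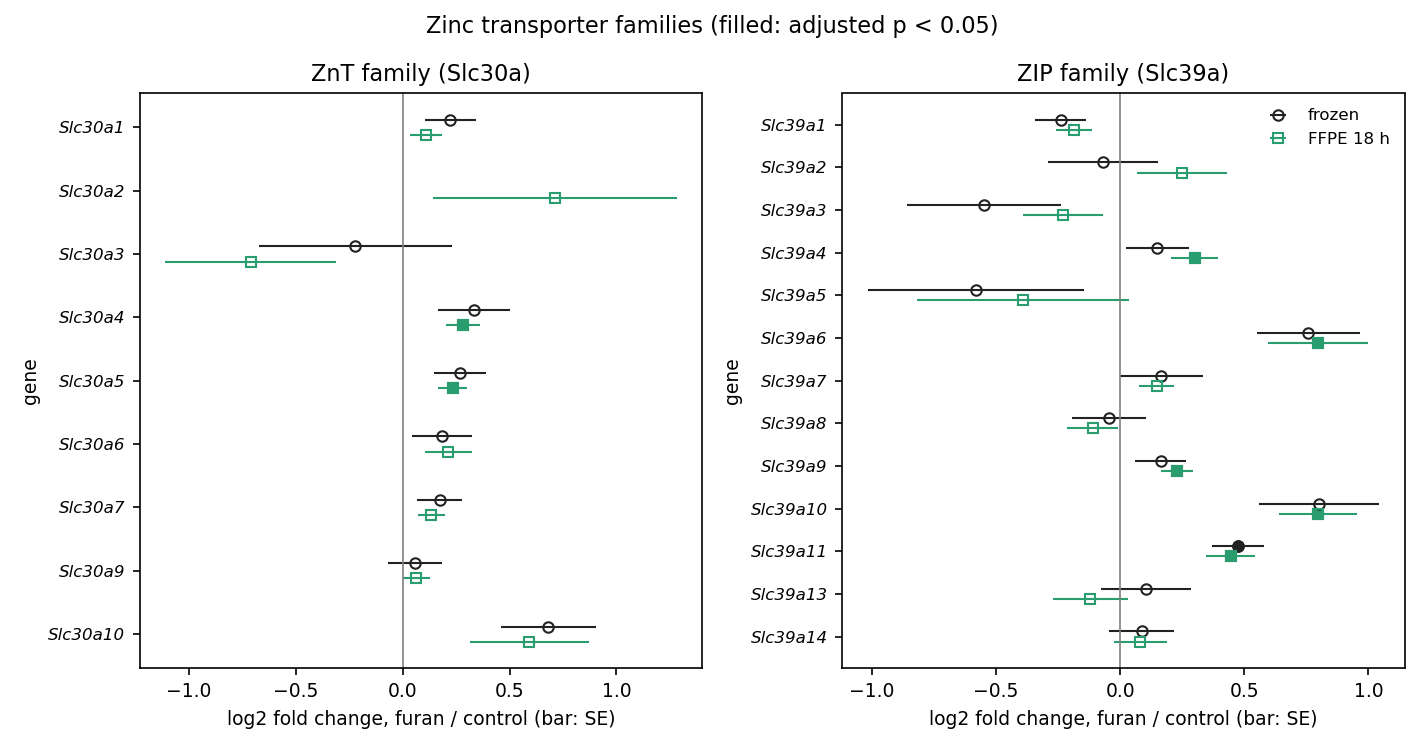
Log2 fold change of furan against control (horizontal axis) for the tested ZnT and ZIP genes (vertical axes) in frozen and 18 h FFPE tissue, with bars of 1 standard error and points filled where the edgeR adjusted p is under 0.05. Most points lie to the right of 0, and the filled ones are 1 ZIP in frozen tissue and 2 ZnT and 5 ZIP genes in 18 h tissue.

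Of the other metallothioneins, Mt3 had at most 2 and Mt4 at most 3 counts in any group, too few to test. Mtf1, which encodes the zinc sensor MTF-1, gave log2 differences of 0.18, 0.25 and 0.61 in frozen, 18 h and 3 week tissue (edgeR adjusted p = 0.453, 0.0908 and 0.156). Of 16 copper-handling genes tested, furan changed none in frozen tissue, beside 2.78% of all genes. In 18 h tissue 2 rose, Steap4 (0.36) and Sco1 (0.36), and 3 fell, Atp7b (-0.33), Ccs (-0.33) and Steap3 (-0.54), beside 7.82% of all genes raised and 7.72% lowered. Atp7b is the copper exporter of hepatocytes and Ccs the copper chaperone of superoxide dismutase. In 3 week tissue 1 of the 16 rose, Steap4 (0.46), beside 1.07% of all genes raised. The list's other call was Mt2, given above, beside 1.51% of all genes lowered.

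Metallothionein genes also respond to glucocorticoid, interleukin-6 and oxidative signals, so the lists for these were read beside them. In frozen tissue furan changed none of 16 glucocorticoid-responsive and none of 20 IL-6 and STAT3 response genes by edgeR, beside 2.78% of all genes. In 18 h tissue 1 of the 16 fell and 1 of the 20 rose, beside 7.72% of all genes lowered and 7.82% raised. In 3 week tissue 2 of the 16 fell, Mt2 being 1 of these, beside 1.51% of all genes lowered. Of the NRF2-responsive genes 9 of 13 rose and none fell in frozen tissue, with a median log2 fold change of 1.05, beside 1.57% of all genes raised. Among them were Gsta1 (2.65), Srxn1 (1.25), Nqo1 (1.21) and Ephx1 (1.05), which detoxify electrophiles and oxidants. Genes of that list rose in 12 of 14 tested at 18 h and in 6 of 12 at 3 weeks, beside 7.82% and 1.07% of all genes raised. This list was assembled with furan results of these livers known, and its rise is no independent evidence.

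More of the 6 genes were called between preservations, where 8 libraries stood on each side, than for furan: 2 were called for 18 h FFPE against frozen tissue, 5 for 3 weeks against frozen and 2 for 3 weeks against 18 h. Over all genes tested, edgeR called 53.9%, 48.8% and 32.4% in these comparisons, with treatment in the model. With the animal as a replicate block, 4, 6 and 5 of the 6 were called, against 8522, 6719 and 5162 of all genes. Scaling by library totals alone moved the median of all genes to 0.34 and 0.40 for 18 h and 3 weeks against frozen, from 0.01 and -0.02, so the values are relative to the bulk of genes. Summed hepatocyte markers moved too, to 140205 to 160262 CPM at 18 h and 81976 to 104261 CPM at 3 weeks, and their part in these differences was not tested.

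On the TMM scale Slc39a4 was lower in FFPE than in frozen tissue in every liver. It was 39.4 to 55.7 CPM (median 48.6) in the 8 frozen pieces, 27.2 to 39.4 CPM (median 35.3) after 18 h and 12.3 to 33.1 CPM (median 21.6) after 3 weeks. The frozen and 3 week values did not overlap on that scale, and how many of all genes separate in this way was not counted. The log2 fold change was -0.54 ± 0.08 at 18 h and -1.20 ± 0.16 at 3 weeks against frozen (SE, edgeR adjusted p = 1.34e-05 and 1.01e-06), and -0.67 ± 0.16 between the FFPE sets (adjusted p = 0.0016). It was lower in 8 of 8 livers in each comparison on the TMM scale. By library totals alone the differences from frozen were -0.21 at 18 h and -0.78 at 3 weeks (edgeR adjusted p = 0.0382 and 0.000207). The frozen and 3 week values then overlapped, and furan animal 41 was at 35.8 CPM frozen and 37.6 CPM at 3 weeks. The hepatocyte markers include several of the most abundant liver transcripts. Of these markers 12 of 14 also fell at 18 h and 14 of 14 at 3 weeks against frozen, beside 27.3% and 25.8% of all genes lowered. Their part in the Slc39a4 difference was not tested.

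Slc30a1 was higher in 3 week tissue than in frozen or 18 h tissue. Its range was 68.3 to 104 CPM frozen, 79.6 to 101 CPM at 18 h and 106 to 158 CPM at 3 weeks. The 3 week values lay above all others, and how many of all genes separate in this way was not counted. The log2 fold change was -0.06 ± 0.07 at 18 h against frozen (SE, edgeR adjusted p = 0.516), 0.46 ± 0.09 at 3 weeks against frozen (adjusted p = 0.00016) and 0.51 ± 0.08 between the FFPE sets (adjusted p = 8.01e-06). The small negative value at 18 h turned to 0.27 (adjusted p = 0.00218) when libraries were scaled by their totals alone.

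Slc30a10 was higher at 3 weeks than frozen by 0.66 ± 0.20 (log2, SE, edgeR adjusted p = 0.011), in 8 of 8 livers, and without control animal 3 this was 0.53 (adjusted p = 0.0789). Between 18 h and frozen it differed by 0.13 ± 0.18 (adjusted p = 0.569), and between the FFPE sets by 0.53 ± 0.23 (adjusted p = 0.106). With the animal as a replicate block the latter was 0.50 (adjusted p = 4.35e-08), as all 8 livers were higher at 3 weeks.

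Slc39a14 was higher in both FFPE sets than frozen in 8 of 8 livers, by 0.22 ± 0.09 at 18 h and 0.35 ± 0.09 at 3 weeks (log2, SE, edgeR adjusted p = 0.0400 and 0.00243). The 18 h call was lost without the filter on low counts (adjusted p = 0.0561) and without control 2 (0.0690), control 4 (0.0888), furan 41 (0.0869), furan 43 (0.0673) or furan 44 (0.0692). With the replicate block the difference between the FFPE sets, 0.12, passed as well (adjusted p = 0.0122).

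**Figure D4:**
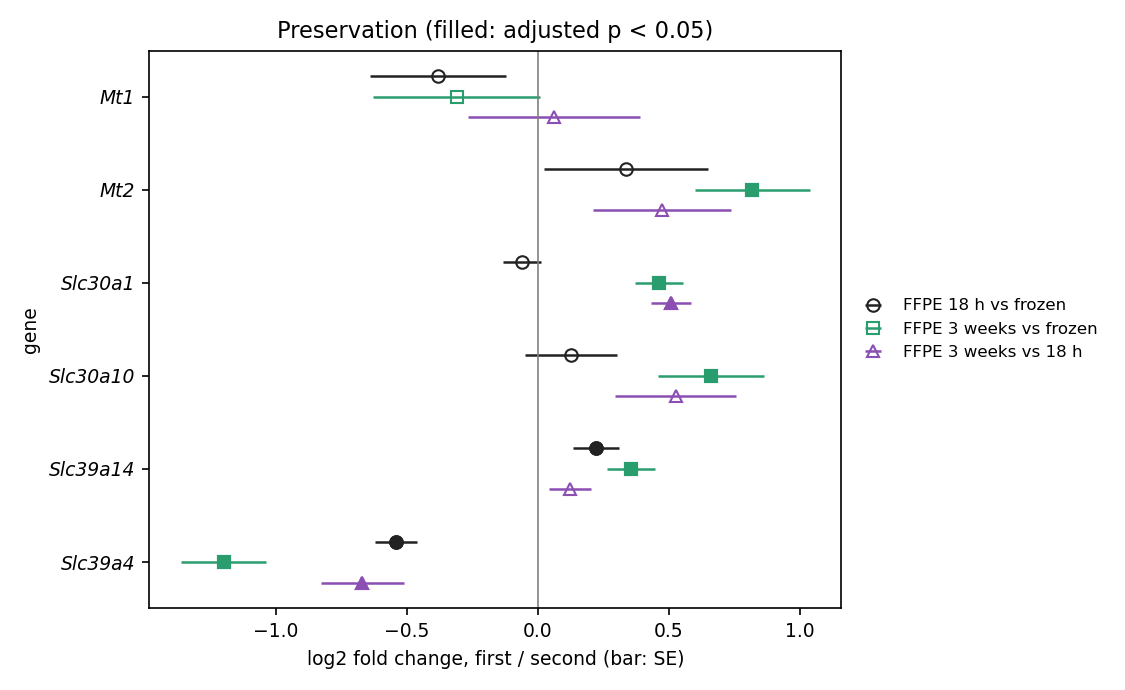
Log2 fold change between preservations (horizontal axis) for each of the 6 genes (vertical axis) in the 3 comparisons, with bars of 1 standard error and filled points where the edgeR adjusted p is under 0.05. Slc39a4 lies below 0 in all 3 comparisons, and Mt2, Slc30a1, Slc30a10 and Slc39a14 lie above 0 and are filled for 3 weeks against frozen.

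The metallothioneins parted from each other between frozen and FFPE tissue. Mt1 was 33.9 to 116 CPM (median 89.2) frozen, 28.0 to 112 CPM (median 65.2) at 18 h and 18.7 to 139.6 CPM (median 65.5) at 3 weeks. Mt2 was 7.03 to 38.8 CPM (median 21.8) frozen, 8.89 to 49.5 CPM (median 27.4) at 18 h and 21.1 to 73.2 CPM (median 37.7) at 3 weeks. Against frozen, Mt1 was lower in 7 of 8 livers in both FFPE sets and Mt2 higher in 7 of 8 at 18 h and 8 of 8 at 3 weeks.

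For Mt1 the log2 differences against frozen were -0.38 ± 0.26 at 18 h and -0.31 ± 0.32 at 3 weeks (SE, edgeR adjusted p = 0.234 and 0.454). For Mt2 they were 0.34 ± 0.31 and 0.82 ± 0.22 (adjusted p = 0.388 and 0.0036). With the animal as a replicate block, which takes out differences between livers, both genes were called at 18 h (Mt1 -0.39, adjusted p = 0.00621, and Mt2 0.31, adjusted p = 0.00184). In that model Mt1 was also called at 3 weeks (-0.38, adjusted p = 0.0341), and Mt2 between the FFPE sets (0.56, adjusted p = 0.000196). By library totals alone the 3 week difference of Mt1 from frozen turned to 0.11 (adjusted p = 0.794).

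The ratio of Mt2 to Mt1 counts within a library does not depend on scaling. In frozen tissue the controls held 26.3, 48.8, 21.0 and 19.7 Mt2 counts per 100 Mt1 counts and the furan livers 19.8, 26.0, 21.3 and 20.7. At 18 h the ratios were 34.2, 44.2, 37.9 and 30.4 in controls, and 33.7, 60.0, 50.1 and 31.7 with furan. At 3 weeks they were 66.8, 52.5, 98.7 and 38.4, and 40.3, 51.5, 42.8 and 113. All livers but control animal 3 at 18 h had a higher ratio in each FFPE set than in their frozen piece.

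The log2 ratio rose by 0.69 on average at 18 h (7 of 8 livers, 2-sided exact sign-flip permutation test over animals, p = 0.0156) and by 1.26 at 3 weeks (8 of 8, p = 0.00781, the smallest p that 8 animals allow). Both had an adjusted p of 0.0469 over the 6 ratio comparisons. Between the FFPE sets it differed by 0.57 (6 of 8 higher, exact p = 0.0547, adjusted p = 0.109), and without furan animal 42 or 43 it was 0.68 or 0.69 (exact p = 0.0313 for each). Furan did not separate the ratio: the log2 differences were -0.31, 0.22 and -0.10 in frozen, 18 h and 3 week tissue (2-sided exact permutation p = 0.486, 0.400 and 0.800, where 4 against 4 allows no p below 0.0286).

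**Figure D5:**
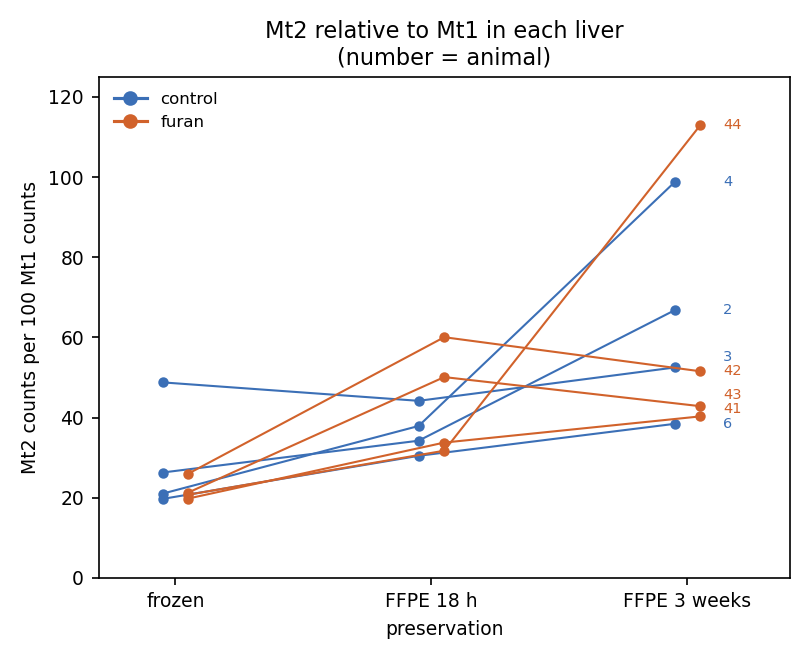
Mt2 counts per 100 Mt1 counts (vertical axis) in each of the 8 livers by preservation (horizontal axis), with a line joining the 3 pieces of a liver, animal numbers at the right and colours for control and furan. The ratio rises from frozen to 3 week tissue in all 8 livers, and furan animal 44 ends highest at 113.

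Mt1 and Mt2 also differ from the transporters in length: their RefSeq-linked transcripts hold 549 and 511 bases, against 2750 for Slc39a4, 4926 for Slc39a14, 5244 for Slc30a1 and 5836 for Slc30a10. Genes with a longest transcript under 600 bases had a median log2 fold change of 0.70 at 18 h (279 genes) and 1.63 at 3 weeks (248 genes) against frozen, beside 0.01 and -0.02 for all genes. Mt2, at 0.82, lay below the 3 week median of that class, and Mt1, whose longest listed transcript has 1085 bases, did not share its direction. The longest stretch that the RefSeq-linked Mt1 and Mt2 transcripts share was 20 bases. Whether reads that fit both genes were counted is not given in the sources used here.

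Mt1 and Mt2 varied together between livers of a group. After the mean of each of the 6 groups was removed, Mt1 and Mt2 correlated with Pearson's r = 0.71 (Spearman's rho 0.66) over the 24 libraries. The same measure was 0.60 for Mt1 with Slc30a1, 0.57 for Mt1 with Slc39a14, 0.54 for Slc30a1 with Slc30a10 and 0.02 for Mt1 with Slc30a10. These describe 24 libraries that share 8 livers, so each liver counts 3 times and no p is given.

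By that measure, among 11297 genes, the closest to Mt1 were D930015M05Rik (r = 0.80), Rictor (0.79), Fbxl17 (0.79), Terf2ip (0.79) and Zbtb16 (0.75). Closest to Mt2 were Foxa3 (0.79), Fbxo21 (0.73) and Ctdsp2 (0.73), and without the 2 libraries farthest from the Mt2 median these were 0.66, 0.46 and 0.52. For Slc30a10 the closest were Nedd4l (0.92), Paqr9 (0.90) and Cpeb4 (0.90). Slc30a1 was closest to Rnf2 (0.84), Rnf24 (0.83) and Abi1 (0.83), Slc39a14 to Larp4b (0.80), Nt5dc3 (0.80) and Mtss1 (0.78), and Slc39a4 to Med18 (0.87), Ap5b1 (0.84) and Mrps11 (0.84).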

How the data were processed

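Liver RNA was sequenced after removal of ribosomal RNA, and the authors deposited 1 table of whole-number read counts per gene symbol. Per the submitters' processing notes, the tools were CASAVA 1.8.2, STAR 2.3.0 and featureCounts 1.4.4 and the build was mm9; strand and multi-mapping settings are not given in the sources used here. Every column matched 1 of 24 samples by name, and 4185 of 24015 symbols had no count.

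Each comparison was fitted on all genes in R 4.3.3 with edgeR 4.0.16 (TMM scaling, filterByExpr, quasi-likelihood test, 2-sided, Benjamini-Hochberg threshold 0.05). Furan was compared within each preservation, and preservations were compared with treatment in the model. Levels (CPM) are counts scaled to a common library size with TMM factors over all 24 libraries. Mt2 to Mt1 ratios were tested by exact permutation over animals. The fits were tested on simulated data. Alternatives were library totals, DESeq2 1.42.0 (size factors and test), no filter, thinned counts, an animal block, 1 model of all 24 libraries, and each liver left out.

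The pieces of 1 number come from 1 liver per the labels, so they are paired by animal. Within-group deviations of the same liver correlated at 0.04 to 0.45 between frozen and 18 h tissue, lowest in control animal 3, at -0.01 to 0.15 between frozen and 3 weeks and at 0.07 to 0.18 between the FFPE sets. Pieces of different livers of a group correlated at -0.25 to 0.08, -0.11 to 0.03 and -0.11 to 0.03. The best match was the own liver in 7, 7 and 8 of 8. Both FFPE pieces of control animal 3 matched the frozen piece of control 2 better (0.08 and 0.03) than their own (0.04 and -0.01). The labels call the animals of a group biological replicates.

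Transcript lengths were matched by symbol, and promoter sequences are RefSeq's for GRCm38.p6, a build other than that of the counts. The genes described, and the lists, were chosen with earlier results of these data known. Genes beyond the 6 were named when a zinc, metallothionein or copper list member passed in a furan comparison, as the up to 4 smallest p of another list in frozen tissue, or as the 3 (5 for Mt1) most alike. Mtf1, Mt3, Mt4 and the intestinal markers named fall outside that rule and were chosen after their values were seen.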

Additional observations from a re-analysis of the deposited data

Results flagged for a closer look

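In each group of 4 livers, the gap between the highest or lowest value and its neighbour was compared with the range of the group, over 42 groups. Values past Dixon's critical value at the 95% level are given here, which chance alone gives in about 1 in 20 groups. Mt2 in the frozen piece of control animal 3 was 38.8 CPM, against 21.1 to 22.9 CPM in the other 3 controls (gap 0.900 of the range). The same liver also had the highest Mt2 of the controls in both FFPE sets, at 49.5 and 73.2 CPM. The ratio of Mt2 to Mt1 in the 3 week piece of furan animal 44 was 113 Mt2 counts per 100 Mt1 counts, against 40.3 to 51.5 in the other 3 furan livers (gap 0.845 of the range). That liver had the lowest Mt1 in all 3 preservations, and its ratio was 20.7 in frozen and 31.7 in 18 h tissue.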

How the results depend on the processing

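Over the furan log2 fold changes of the 6 genes, 106 values under other settings with all livers kept their direction and call and 2 lost the call. The 1 model of all 24 libraries called 0 of the 6 at 18 h and 0 at 3 weeks, with 305 and 1549 genes, against 2208 and 335; it called 5224 genes for 18 h against frozen. DESeq2 called 1065 genes for furan in frozen tissue, and 9 and 25 interactions for 3 weeks against frozen and against 18 h, where the joint model called 4 and 5. For 18 h against frozen, library totals called 4 of the 6, no filter 1 and the replicate block 4; for 3 weeks against 18 h, where 2 were called, the replicate block called 5, library totals 3 (with Slc39a14, adjusted p = 0.0327), DESeq2 3 (with Slc30a10, adjusted p = 0.0441) and the fit without control 6 also 3 (with Slc30a10, adjusted p = 0.00229). Without the replicate block the ratio difference between the FFPE sets, 0.57, passed (exact permutation p = 0.0308). The replicate block changed no other call than those given.

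Leaving out 1 liver gave 99 to 1148 genes for furan in frozen tissue and 0 to 1 of the 6, 0 to 1 of the 6 at 18 h, and 218 to 280 genes and 0 to 1 of the 6 at 3 weeks. Without furan animal 44, 43, 42 or 41 or control 4 or 6 the frozen count was 99, 105, 160, 174, 146 and 182, and without furan 44 the 3 week count was 218. It gave 1 to 2 of the 6 for 18 h against frozen, 0 to 1 interactions for 3 weeks against each other set, and ratio differences of 0.39 to 0.69 between the FFPE sets and -0.44 to 0.14 for furan at 3 weeks (0.14, 0.06 and 0.03 without control 4, furan 41 and furan 43).

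Other directions that turned were of small differences. Library totals gave 0.27 for Slc30a1 at 18 h and 0.11 for Mt1 at 3 weeks against frozen. With 1 liver left out, the furan difference of Slc39a14 ran from -0.013 to 0.17 at 18 h and from -0.18 to 0.0026 at 3 weeks, and Mt1 between the FFPE sets from -0.011 to 0.12. The interactions between 18 h and frozen then ran from -0.14 to 0.022 for Slc30a1, -0.12 to 0.023 for Slc30a10 and -0.023 to 0.027 for Slc39a14, the last also at -0.014 by library totals and -0.012 in the joint model. Those between 3 weeks and frozen ran from -0.15 to 0.081 for Slc30a1 and -0.27 to 0.11 for Slc30a10. Those between the FFPE sets ran from -0.19 to 0.067 for Mt1, -0.0032 to 0.096 for Slc30a1 and -0.15 to 0.11 for Slc30a10, which was 0.0049 with the replicate block. The cause was not tested.

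Library totals raised the share of calls that were higher from 49.4% to 82.2% for 18 h against frozen, from 47.1% to 75.3% for 3 weeks against frozen, from 45.9% to 59.7% between the FFPE sets, from 56.6% to 67.2% for furan in frozen tissue, from 50.3% to 59.1% at 18 h and from 41.5% to 51.8% at 3 weeks. The joint model lowered it to 44.9% in frozen tissue. Thinned to the smallest library, Mt2 for furan at 3 weeks was -0.87 and Slc39a4 at 18 h 0.30, both still called.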
